A study of Arabidopsis thaliana with 6 samples.

Results

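The 35 genes described here had low normalized values in wild-type Arabidopsis thaliana embryos and clearly higher values in embryos homozygous for dcl1-15. They were chosen by those values. A probe set that names 1 gene was taken if all 3 wild-type values lay under log2 of 5 and all 3 dcl1-15 values reached log2 of 7. Of 9631 probe sets with 1 named gene, 40 met both limits, and 5 of these (AT1G03890, AT2G15010, AT2G18540, AT1G29670 and LBD16) were left out by name. Since every array took part in the choice, the differences of the 35 genes are given as a description, without a test.

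DCL1 encodes a Dicer-like nuclease. It releases microRNAs (miRNAs) from their hairpin precursors. The miRNAs pair with messenger RNAs, many of them for transcription factors, and lead to their cleavage or reduced translation. During embryogenesis an early phase of pattern formation is followed by maturation, in which reserve proteins, oil and proteins of desiccation tolerance build up.

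The study used 6 single-colour oligonucleotide arrays, 3 per genotype with the replicates labelled as biological. Each array held RNA of 300 pooled embryos. Wild-type samples were DCL1/DCL1 embryos at the torpedo stage, when the cotyledons elongate, taken from DCL1/DCL1 plants among the progeny of a DCL1/dcl1-15 parent. Mutant samples were dcl1-15/dcl1-15 embryos picked from siliques of DCL1/dcl1-15 plants whose normal embryos had reached that stage. The mutant embryos were therefore staged by their siblings, and the mother plants of the genotypes differed too. The background of all samples was Ws crossed 6 to 7 times to Landsberg erecta. In such pooled embryos, more cells of a type and more RNA per cell cannot be told apart.

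Values are normalized log2 values, and array values are always listed in the order of replicates 1, 2 and 3. The array medians lay between 6.34 and 6.48. How far a low value lies from background is not known, as no detection calls are at hand. Of all 17122 probe sets tested, 19.4% stayed at or below log2 of 4 throughout, and 18 of the 35 genes had at least 1 wild-type value of 4 or more. The wild-type level of these genes is therefore called low rather than absent. Among the measured seed genes, OLEO3, an oleosin that coats seed oil bodies, had means of 12.23 in wild type and 12.89 in dcl1-15, and the bZIP gene EEL had 10.52 and 11.41. DCL1 has no probe set among those naming 1 gene, so the mutated gene is not analysed here.

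Wild-type means of the 35 genes ran from 1.46 to 4.78, with a median of 3.73. Their dcl1-15 means ran from 7.10 to 10.02, with a median of 8.0001. The difference (dcl1-15 mean less wild-type mean) ran from 2.88 to 8.40 with a median of 4.40, beside a median of -0.07 over all probe sets tested. In 6 genes the dcl1-15 mean was 9 or more, in 12 it lay between 8 and 9, and in 17 it was under 8. In limma's test all 35 were called higher at an adjusted p under 0.05, where 18.3% of all probe sets were called higher. The choice of the genes fixes that count, and nothing is read from it.

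**Figure D1:**
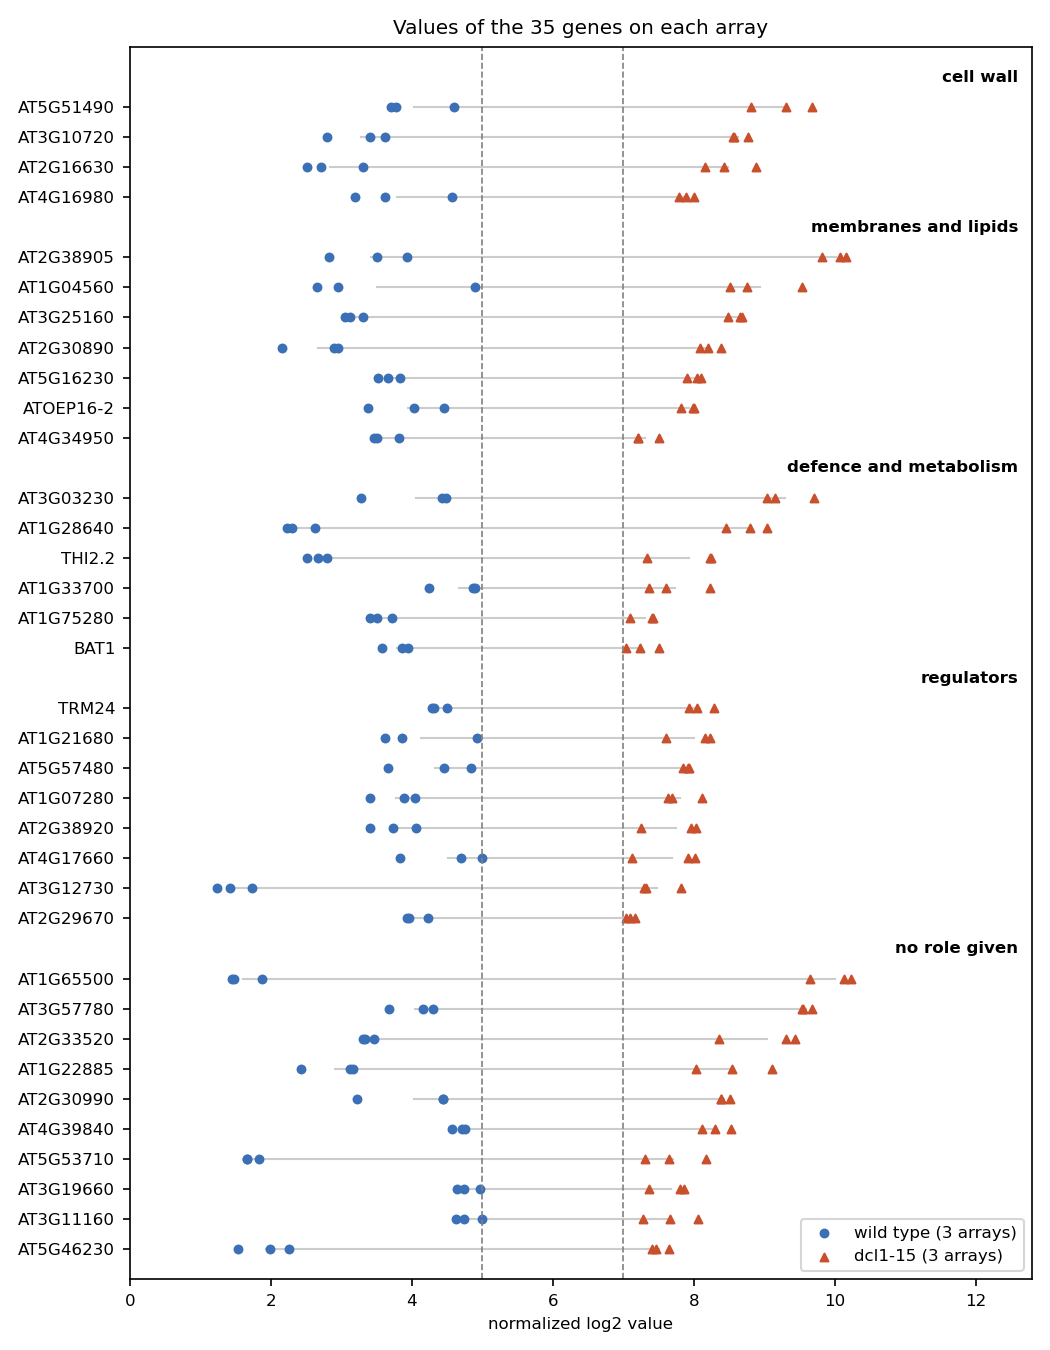
Normalized log2 value (horizontal axis) of each of the 35 genes (rows, grouped by function) on each array. Blue circles are the 3 wild-type arrays, orange triangles the 3 dcl1-15 arrays, grey lines join the group means, and dashed lines mark the limits of 5 and 7 that chose the genes. The longest line is that of AT1G65500, from 1.60 to 10.01.

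**Figure D2:**
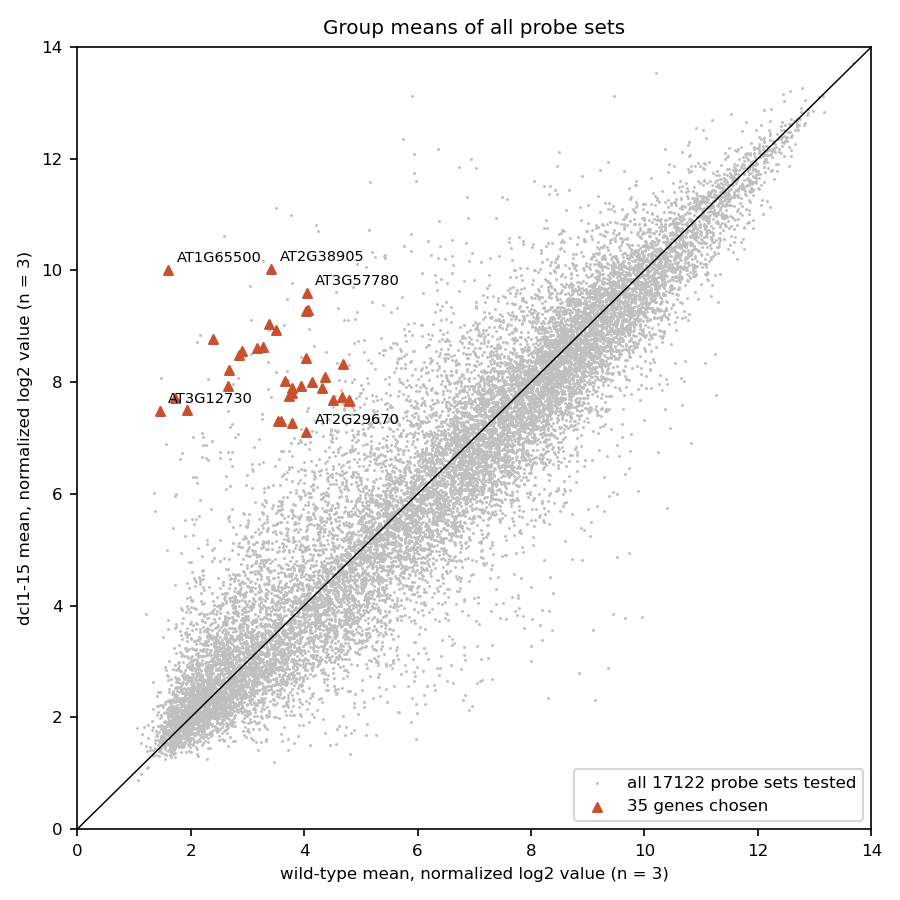
Mean over 3 wild-type arrays (horizontal axis) against the mean over 3 dcl1-15 arrays (vertical axis) in normalized log2 values for all 17122 probe sets tested (grey), with the 35 chosen genes as orange triangles and the line of equal values in black. The chosen genes fill the upper left, where dcl1-15 means run from 7.10 to 10.02 and wild-type means stay at 4.78 or less.

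By known or annotated function, 4 of the genes act in the cell wall, 7 in membranes and lipids and 6 in defence and metabolism. Another 8 were grouped as regulators or interaction proteins, a mixed group that includes an AAA-type ATPase. The remaining 10 are given no role here. Median differences were 5.30 for the wall genes, 5.44 for membranes and lipids and 4.50 for defence and metabolism. They were 3.79 for the regulators or interaction proteins and 5.57 for the genes without a role. With values under log2 of 4 set to 4 these medians were 4.56, 4.23, 3.62, 3.59 and 3.92 in the same order, so the order of the classes depends on the low wild-type values.

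The cell wall genes had dcl1-15 means of 7.90 to 9.27. AT5G51490 and AT3G10720 encode pectin methylesterases, enzymes that remove methyl groups from wall pectin and so alter its stiffness. AT5G51490 measured 4.60, 3.71 and 3.78 in wild type and 9.67, 9.31 and 8.81 in dcl1-15, a difference of 5.24. AT3G10720 measured 2.80, 3.41 and 3.62 in wild type and 8.77, 8.56 and 8.57 in dcl1-15, a difference of 5.36. Their wild-type values span the low part of the scale, while the dcl1-15 values of AT3G10720 lie within a narrow band.

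AT2G16630 encodes FOCL1, a proline-rich wall protein known from the cuticular ledges of guard cells. It stood at 3.31, 2.71 and 2.51 in wild type and at 8.88, 8.43 and 8.16 in dcl1-15, with replicate 1 highest in both genotypes. AT4G16980, of the arabinogalactan-protein family, had 4.57, 3.19 and 3.62 in wild type and 8.003, 7.89 and 7.79 in dcl1-15. It is the 1 gene of the 35 with another probe set of its own, which was screened by the same limits. That second probe set measured 5.15, 4.16 and 4.50 in wild type and 9.39, 9.40 and 9.22 in dcl1-15. The difference there was 4.73, against 4.10 in the first probe set. Both read the same gene on the arrays that chose it, so no test is drawn from the second. The extra probe set missed the wild-type limit because of replicate 1.

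Among the genes of membranes and lipids, AT2G38905 encodes a small membrane protein of the RCI2 family, whose members respond to cold and salt. Its values were 3.93, 2.83 and 3.51 in wild type and 10.16, 10.08 and 9.81 in dcl1-15, a difference of 6.60. AT1G04560 encodes an AWPM-19-like protein, a family named after a wheat plasma membrane protein that accumulates with abscisic acid. In wild type it measured 2.95, 2.66 and 4.90, and in dcl1-15 9.54, 8.76 and 8.52. Its wild-type SD of 1.21 was the largest of the 35 genes because replicate 3 stood well above the other two. The difference was 5.44 with all arrays and 6.13 without wild-type replicate 3.

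M17, which is not among the 35, was also high on that array. It belongs to the late embryogenesis abundant (LEA) proteins that protect drying seeds, and measured 2.27, 2.00 and 8.01 in wild type and 1.86, 1.89 and 1.99 in dcl1-15. The other 34 genes moved by less than 1.5-fold when any single array was left out.

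AT3G25160 encodes a relative of the KDEL receptor, which returns proteins from the Golgi to the endoplasmic reticulum. It had 3.31, 3.05 and 3.12 in wild type and 8.66, 8.69 and 8.49 in dcl1-15, with SDs of 0.14 and 0.11. AT2G30890, a cytochrome b561-type membrane protein, had 2.16, 2.90 and 2.96 against 8.09, 8.39 and 8.20. With the floor at 4 they differed by 4.61 and 4.23, in place of 5.45 and 5.56. AT5G16230 encodes an acyl-ACP desaturase, which places a double bond in plastid fatty acids, and went from 3.67 ± 0.15 to 8.02 ± 0.10 (SD, n = 3). ATOEP16-2, the seed form of a channel protein of the outer plastid envelope, went from 3.95 ± 0.55 to 7.93 ± 0.10. The nodulin-like transporter gene AT4G34950 of the major facilitator superfamily went from 3.59 ± 0.19 to 7.31 ± 0.17.

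Of the genes of defence and metabolism, THI2.2 encodes a thionin, a small cysteine-rich peptide with antimicrobial activity. It measured 2.80, 2.52 and 2.67 in wild type and 8.23, 8.25 and 7.34 in dcl1-15, where replicate 3 was the lowest. AT3G03230, an alpha/beta hydrolase, had 3.28, 4.43 and 4.48 in wild type and 9.04, 9.70 and 9.16 in dcl1-15. AT1G28640 encodes a lipase of the GDSL type, named for its active-site motif, and had 2.63, 2.23 and 2.29 in wild type and 8.45, 9.04 and 8.81 in dcl1-15. Its difference was 6.38, and 4.77 with values under log2 of 4 set to 4.

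BAT1 encodes an acyltransferase that lowers active brassinosteroids, the steroid growth hormones of plants. It stood at 3.94, 3.85 and 3.58 in wild type and at 7.24, 7.51 and 7.03 in dcl1-15. AT1G75280, an isoflavone reductase homolog also called P3, measured 3.72, 3.40 and 3.51 in wild type and 7.43, 7.40 and 7.09 in dcl1-15. These are among the genes nearest the dcl1-15 limit of 7. AT1G33700, a glucosidase of the GBA2 type, measured 4.90, 4.87 and 4.24 in wild type and 8.23, 7.36 and 7.60 in dcl1-15, with a difference of 3.06.

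The group of regulators or interaction proteins had dcl1-15 means of 7.10 to 8.09. AT3G12730 encodes a transcription factor of the GARP type, with a MYB-like DNA-binding domain. It had 1.73, 1.23 and 1.42 in wild type, and measured 7.29, 7.82 and 7.33 in dcl1-15. TRM24, named for a motif that recruits the microtubule-organizing protein TON1, had 4.50, 4.31 and 4.29 in wild type and 8.28, 8.04 and 7.94 in dcl1-15. The protein kinase gene AT4G17660 measured 3.84, 4.9998 and 4.70 in wild type and 7.12, 8.01 and 7.93 in dcl1-15, and its second wild-type value is the nearest to the limit of 5. AT2G38920 encodes a protein with an SPX domain, found in phosphate sensing, and a RING finger of ubiquitin ligases. It went from 3.73 ± 0.33 to 7.75 ± 0.43.

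AT1G07280 and AT2G29670 encode proteins with tetratricopeptide repeats, which bind other proteins. AT1G07280 had 4.05, 3.88 and 3.41 in wild type and 8.12, 7.68 and 7.63 in dcl1-15. AT2G29670 had 3.96, 3.93 and 4.23 in wild type and 7.17, 7.09 and 7.03 in dcl1-15. AT5G57480, an AAA-type ATPase, measured 3.67, 4.46 and 4.84 in wild type and 7.85, 7.94 and 7.92 in dcl1-15. Its dcl1-15 SD of 0.05 was the smallest of all 35. AT1G21680, a protein with a WD40-like propeller, had 4.93, 3.86 and 3.61 in wild type and 8.16, 8.23 and 7.61 in dcl1-15, so a wild-type array lay close to the limit.

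With the values as deposited, the widest separation belonged to a gene without a role given here. AT1G65500 measured 1.88, 1.45 and 1.48 in wild type, at the low end of the scale, and 10.24, 10.14 and 9.65 in dcl1-15, a difference of 8.40. AT5G53710 measured 1.66, 1.84 and 1.67 in wild type and 8.18, 7.65 and 7.30. AT3G57780 had 4.30, 4.15 and 3.68 in wild type and 9.68, 9.55 and 9.54 in dcl1-15. The dcl1-15 SDs of AT1G65500, AT5G53710 and AT3G57780 were 0.31, 0.44 and 0.08.

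AT2G33520 measured 3.47, 3.34 and 3.31 in wild type and 9.44, 9.31 and 8.36 in dcl1-15, the largest dcl1-15 SD of the 35 at 0.59. AT1G22885 had 3.16, 2.43 and 3.12 in wild type and 9.12, 8.54 and 8.03 in dcl1-15. Replicate 3 was the lowest dcl1-15 array in both genes. AT2G30990 went from 4.04 ± 0.71 to 8.43 ± 0.07, AT4G39840 from 4.68 ± 0.10 to 8.32 ± 0.20 and AT5G46230 from 1.93 ± 0.36 to 7.51 ± 0.13. AT3G11160 had 4.99, 4.62 and 4.74 in wild type and 7.28, 8.07 and 7.66 in dcl1-15, the smallest difference of the 35. AT3G19660 had 4.96, 4.74 and 4.65 against 7.86, 7.80 and 7.36, and is the 1 gene of the 35 not found by its identifier in the RefSeq gene table.

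The arrays of a genotype did not rank evenly over the 35 genes. Replicate 1 held the highest wild-type value in 21 of them, replicate 3 in 11 and replicate 2 in 3. Over all probe sets with 1 named gene those shares were 41.8%, 30.1% and 28.1%. In dcl1-15, replicate 1 held the highest value in 18 of the 35, replicate 2 in 15 and replicate 3 in 2. Over all probe sets with 1 named gene the shares were 37.4%, 32.4% and 30.2%. Replicate 3 held the lowest dcl1-15 value in 22 of the 35, a count without a share over all probe sets here. Median values of the 35 genes on the wild-type arrays were 3.66, 3.51 and 3.62, and on the dcl1-15 arrays 8.18, 8.07 and 7.94. The limits fix a distance between the genotypes, so the size of these shifts is not judged against it.

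Genes just outside the limits had values close to those of the genes just inside. On the wild-type side, AT2G24170 had a highest value of 5.02, AT3G58200 of 5.06 and AT3G60520 of 5.08, with differences of 2.80, 3.78 and 3.43. On the dcl1-15 side, the lowest values of CHR42, AT5G17980 and AT1G36060 were 6.96, 6.94 and 6.93, with differences of 2.93, 4.50 and 3.45. The count of 35 thus belongs to the limits. The largest differences outside the 35 were 8.03 in the storage cupin AT1G03890, 6.89 in AT2G15010, 6.68 in the GDSL lipase AT1G29670, 6.47 in the LEA gene AT4G21020 and 6.14 in the vicilin PAP85. Without wild-type replicate 3 the last 2 were 7.34 and 7.15, and PAP85 was at 5.49 without wild-type replicate 1.

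Relatives of the 35 genes were not chosen by the limits and were tested in the fit over all probe sets. For 11 of the genes, 39 close relatives were listed from known families or tandem clusters once the genes were known, and 20 of these were measured. Of the 20, 9 rose and none fell, with a median difference of 0.46. That is 45.0%, where 17.8% of probe sets with 1 named gene were called higher. With values under log2 of 4 set to 4, 5 relatives rose, which is 25.0%, where 10.3% of probe sets with 1 named gene were called higher. Among the calls lost, AT5G16240 and AT1G19970 have no value under 4, and their differences stayed at 0.81 and 0.70. Without wild-type replicate 2, 7 rose and 1 fell. The part of near-identical probe sequences among tandem copies was not tested.

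Families split into those with relatives that rose and those without. In the cluster around the lipase gene AT1G28640, 4 of 5 measured neighbours rose. AT1G28580 measured 4.28, 3.93 and 3.61 in wild type and 6.90, 7.03 and 6.87 in dcl1-15, a difference of 2.99 ± 0.26 (SE; limma adjusted p = 6.56e-05), and AT1G28650 rose by 2.28 ± 0.41, or by 1.25 with the floor at 4. AT1G28590 differed by 2.01 ± 0.73 and did not pass (adjusted p = 0.0563), but passed without dcl1-15 replicate 1 (adjusted p = 0.00599) and in the fit blocked by replicate number (adjusted p = 8.60e-04). AT1G28600 and AT1G28610 rose by 1.31 and 0.46 from means of 2.36 and 1.81. Neither passed with values under log2 of 4 set to 4. AT1G28610 also missed the threshold without wild-type replicate 3 or any 1 dcl1-15 array (highest adjusted p = 0.114).

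THI2.1, the thionin listed as the relative of THI2.2, had 4.57, 4.21 and 3.64 in wild type and 7.59, 7.29 and 6.49 in dcl1-15. It rose by 2.98 ± 0.36 (SE; limma adjusted p = 4.23e-04), and as in THI2.2 replicate 3 was the lowest dcl1-15 array. AT3G03240, the hydrolase gene next to AT3G03230, rose by 2.48 ± 0.31 (adjusted p = 5.08e-04). Of the KDEL receptor relatives, AT1G75760 rose by 1.32 ± 0.23 from a mean of 7.80, and AT1G19970 rose by 0.70 ± 0.22 from 8.56. AT1G19970 missed the threshold when replicate 2 or 3 of wild type, or replicate 1 or 2 of dcl1-15, was left out (highest adjusted p = 0.130). It also missed with values under log2 of 4 set to 4 (adjusted p = 0.0870), although its own values all lay above 4.

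The desaturase gene AT5G16240, also called AAD1, rose by 0.81 ± 0.24 from 8.14. The call was lost when wild-type replicate 2 (adjusted p = 0.0504), dcl1-15 replicate 2 (adjusted p = 0.0927) or dcl1-15 replicate 3 (adjusted p = 0.102) was left out. With the low values set to 4 it was lost too (adjusted p = 0.0781), although all values of AT5G16240 lay above 4. Its relative AT3G02630 differed by 0.45 ± 0.17 (adjusted p = 0.0687) from a high mean of 10.85, and passed without wild-type replicate 3 (adjusted p = 0.0454), without both arrays numbered 1 and with the block (adjusted p = 0.00787).

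In the other families with measured relatives none passed. The RCI2-type genes AT2G24040, AT4G30650 and AT4G30660 differed by 0.39 ± 0.34, -0.43 ± 0.25 and 0.09 ± 0.25. AT4G30660 was already at 10.11 in wild type, while AT2G24040 and AT4G30650 stayed at means of 4.07 and 1.86 in dcl1-15. AT2G24040 passed upward without wild-type replicate 1 (adjusted p = 0.0317), and AT4G30650 passed downward without wild-type replicate 2 (adjusted p = 0.0497). Of the OEP16 family relatives of ATOEP16-2, OEP16-3 differed by -0.12 ± 0.12 at a wild-type mean of 10.86 and ATOEP16-4 by -0.23 ± 0.40 at 4.24. The AWPM-19-like genes AT1G29520 and AT5G18970 had dcl1-15 means of 2.12 and 3.29, and the isoflavone reductase homologs AT1G75290 and AT1G75300 of 2.29 and 3.47, all within 0.3 of wild type.

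**Figure D3:**
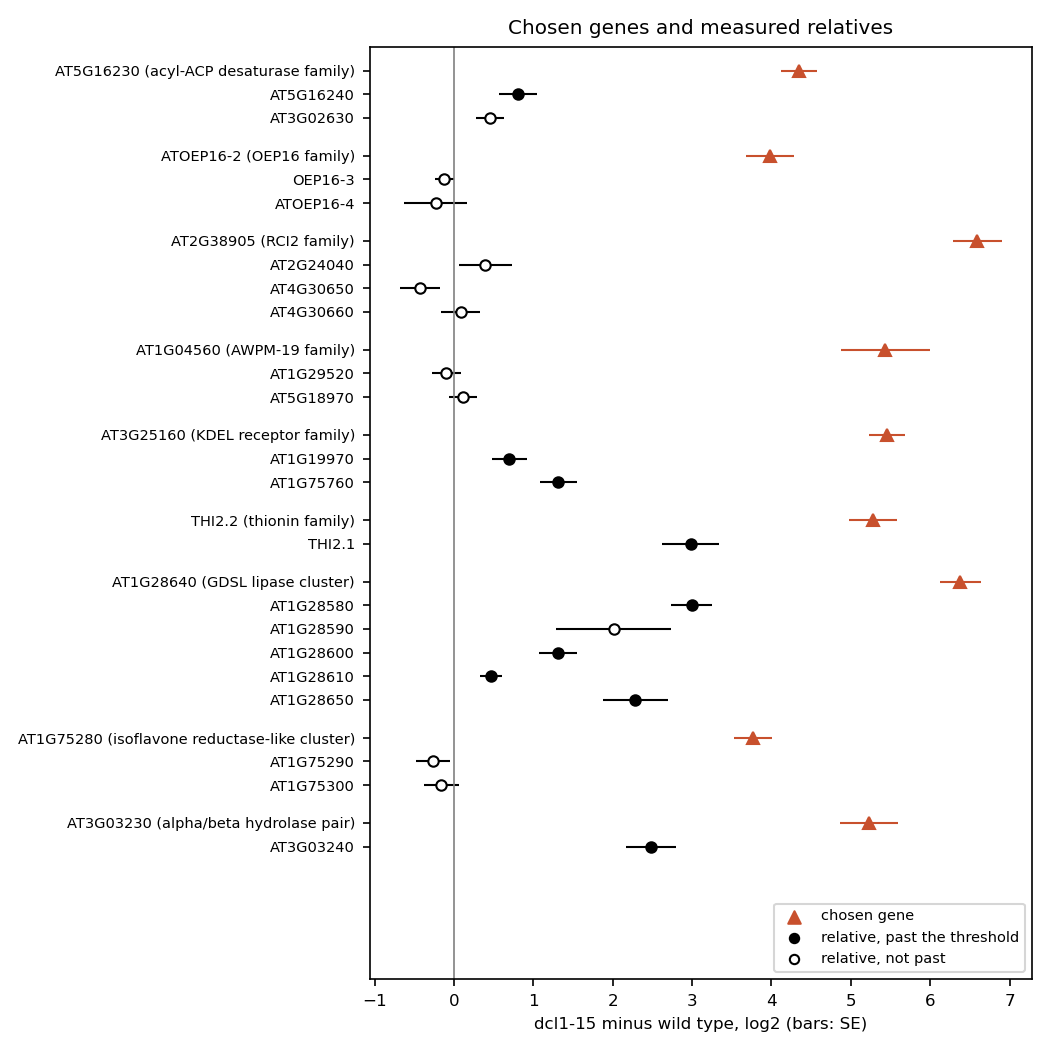
Log2 difference of dcl1-15 from wild type (horizontal axis) for 9 of the chosen genes (orange triangles) and their measured relatives (circles, filled where limma's adjusted p is under 0.05). Bars are standard errors. Relatives of the lipase, thionin, hydrolase, KDEL receptor and desaturase genes include filled circles, and those of ATOEP16-2, AT2G38905, AT1G04560 and AT1G75280 do not.

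Chromosome position gave a further view that the choice had not used. Of the 34 genes found in the RefSeq table, 8 lie on chromosome 1, 7 on chromosome 2, 6 on chromosome 3, 6 on chromosome 4 and 7 on chromosome 5. Chromosome 1 held 23.5% of them, beside 26.4% of all probe sets with 1 named gene and a chromosome, and chromosome 2 held 20.6% beside 14.7%. AT2G38905 and AT2G38920 are separated by 1 gene, the only pair among the 35 within 2 genes of each other. The gene order is that of assembly TAIR10.1.

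Of the 69 protein-coding genes that directly flank the chosen genes, 29 were measured. Among these, 10 rose, 3 fell and 16 did not pass, and 34.5% rose where the share among probe sets with 1 named gene was 17.8%. The 13 calls in either direction made up 44.8% of the 29, where the share was 38.4%. With values under log2 of 4 set to 4, 9 of the 29 rose (31.0%) and 2 fell. With that floor 10.3% of probe sets with 1 named gene were called higher. In the fit blocked by replicate 13 of the 29 rose and 5 fell, and 5 also fell without wild-type replicate 1. The median difference was 0.35. Among the 29, 4 are also relatives described above, and tandem copies were not separated from other neighbours.

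AT1G65490, next to AT1G65500, had the largest change of the flanking genes with the values as deposited. It measured 1.42, 1.32 and 1.32 in wild type and 6.67, 5.94 and 5.44 in dcl1-15, so it was low in wild type like its neighbour, and replicate 3 was again the lowest. The rise was 4.66 ± 0.30 (SE; limma adjusted p = 1.64e-05), and 2.02 with values under log2 of 4 set to 4, below the 2.16 of AT1G21670 beside AT1G21680. On the other side of AT1G65500, AT1G65510 stayed low, with means of 1.39 and 1.67, with a difference of 0.28 ± 0.19 (adjusted p = 0.267). It passed without wild-type replicate 1 (adjusted p = 0.0192) and without both arrays numbered 1 (adjusted p = 0.0268).

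Other flanking genes that rose were AT1G21670 next to AT1G21680, by 2.16 ± 0.22, AT1G22890 next to AT1G22885, by 2.00 ± 0.26 (1.10 with the floor at 4), and AT5G16220 next to AT5G16230, by 1.70 ± 0.24. Next to AT2G33520, scpl46 rose by 1.73 ± 0.22, and AT4G17670 next to AT4G17660 rose by 1.67 ± 0.29. AT2G38900, which lies beside AT2G38905, rose by 1.50 ± 0.27 from a high wild-type mean of 9.60. The genes that fell were AT4G16970, AT1G07270 and AT3G25150, with differences of -1.29, -0.99 and -0.62. Among all probe sets with 1 named gene, 20.6% fell. AT1G07270 missed the threshold when replicate 2 of wild type, or replicate 1 or 3 of dcl1-15, was left out (highest adjusted p = 0.0544) or with low values set to 4. Neighbours in opposite directions are seen at AT4G16980, AT1G07280 and AT3G25160, which were higher in dcl1-15 beside genes that fell.

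**Figure D4:**
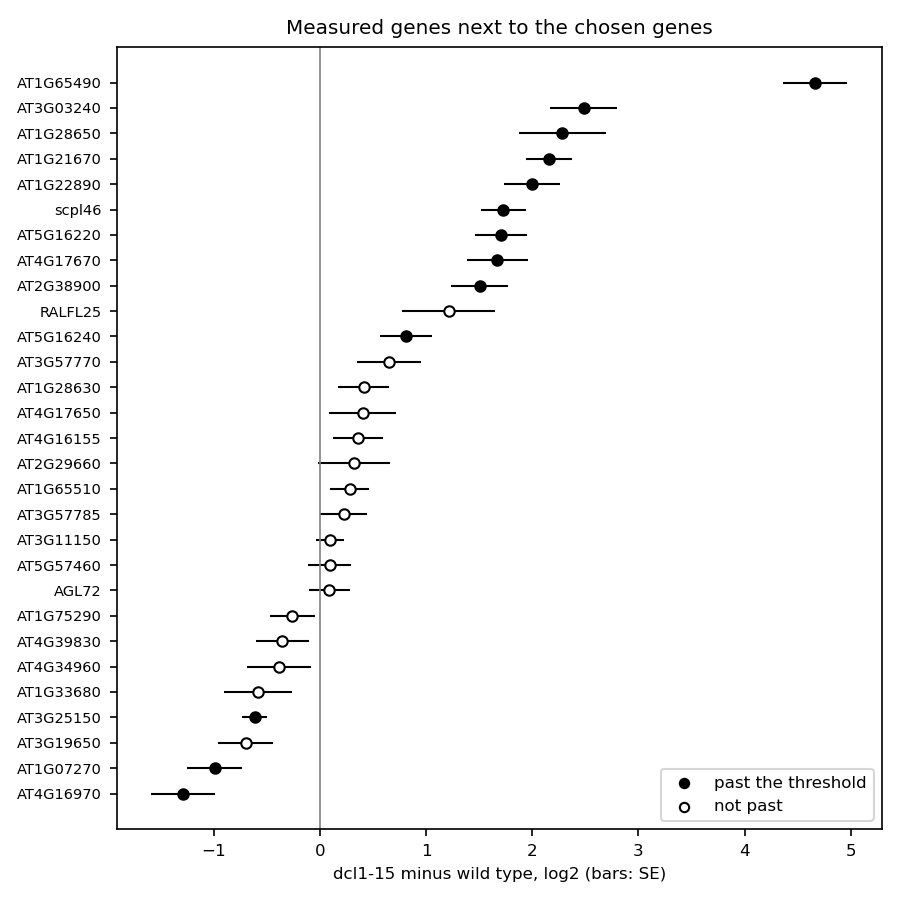
Log2 difference of dcl1-15 from wild type (horizontal axis) for the 29 measured genes that lie directly next to a chosen gene (rows). Bars are standard errors, and filled circles passed limma's adjusted p threshold of 0.05. AT1G65490 stands apart at 4.66, with 10 filled circles above 0 and 3 below.

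Seed gene lists were set beside the 35 genes. Their counts of genes that rose stand against the 17.8% called higher among all probe sets with 1 named gene. Of 21 genes for storage proteins and oil bodies, 8 were measured and all 8 rose, with a median difference of 3.83. AT1G03890 and AT2G18540 are among the 8 and met both limits, so their rise was fixed by the choice. The other 6 rose with a median of 2.60. Among 15 measured LEA genes of 23 listed, 4 rose (26.7%) and 11 did not pass, with a median of -0.24. Wild-type replicate 3 stood apart on this list. It was the highest wild-type array in 14 of the 15 genes, and the summed log2 values were 47.8, 45.0 and 68.9 in wild type and 63.4, 61.6 and 61.1 in dcl1-15. Without that array 5 rose. On every dcl1-15 array 11 of the 15 stayed under 5. AT4G21020 rose by 6.47 ± 0.63 (SE) and AtLEA4-1 by 3.64 ± 0.28. AT1G72100, which rose by 0.53, did not pass without replicate 2 of wild type (adjusted p = 0.0653) or of dcl1-15 (adjusted p = 0.0691) or with low values set to 4. AT3G15670 passed as lower without wild-type replicate 1 (difference -2.09) and AT3G53040 without wild-type replicate 1 or 2 and with the replicate block (differences -0.86, -0.91 and -0.72). Both were also lower without the 2 arrays numbered 1. LEA4-5 passed as higher without wild-type replicate 3 (difference 1.44). Of 3 measured maturation regulators of 14 listed, AGL18 rose by 1.77 ± 0.29 and EEL by 0.88 ± 0.11. The third, BZIP53, had means of 9.77 and 9.69 (adjusted p = 0.672). The defence list of 15 genes had 3 measured, of which THI2.2 is itself one of the 35, THI2.1 rose and PDF1.2, a defensin of jasmonate signalling, differed by -0.15 ± 0.24 (adjusted p = 0.645). No gene of the lipid transfer list of 10 or the senescence list of 7 was measured.

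Markers of the seed coat and endosperm, the tissues around the embryo, were also compared between the genotypes. Of 21 listed, 5 were measured and all 5 rose, where the share among probe sets with 1 named gene was 17.8%. Their median difference was 1.85. Summed log2 values of the 5 markers were 30.7, 37.3 and 34.3 on the wild-type arrays and 42.7, 45.1 and 45.7 on the dcl1-15 arrays. On the same wild-type arrays the medians of the 35 genes were 3.66, 3.51 and 3.62. On the dcl1-15 arrays they were 8.18, 8.07 and 7.94. The limits chose the values behind these medians, and each genotype has 3 arrays, so nothing is read from their order. DELTA-VPE, whose protease acts in cells of the inner integument, measured 7.23, 9.77 and 8.58 in wild type and 10.40, 10.68 and 10.93 in dcl1-15, and SAG29, also called SWEET15, a sugar transporter of the seed coat and endosperm, rose by 3.07 ± 0.23. BAN, which makes tannin precursors in the inner seed coat, rose within the low range, from 1.53 to 3.65 in wild type to 3.90 to 4.91 in dcl1-15. The calls of BAN and DFR, an enzyme gene of the same pathway, were lost when dcl1-15 replicate 2 was left out (0.0613 and 0.0948 as adjusted p). The same held for dcl1-15 replicate 3 (0.0647 and 0.0957 as adjusted p). With low values set to 4, BAN, DFR and DELTA-VPE did not pass (adjusted p = 0.251, 0.130 and 0.0872). BAN then differed by 0.46. DFR and DELTA-VPE have no value under 4, and their differences stayed at 1.70 and 2.15. For them only the refit over all probe sets changed the adjusted p. DELTA-VPE rose by 2.15 with all arrays, by 1.50 without wild-type replicate 1 and by 2.77 without wild-type replicate 2. The part of these tissues in the levels of the 35 genes was not tested.

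In part of the 35 genes the size of the difference depended on how low the wild-type values were. With values under log2 of 4 set to 4, the 35 differences ran from 2.88 to 6.02 with a median of 3.77. For 13 genes the fold was smaller by over 1.5 times. AT1G65500 then differed by 6.01 in place of 8.40, AT3G12730 by 3.48 in place of 6.02, AT5G53710 by 3.71 in place of 5.99 and AT5G46230 by 3.51 in place of 5.58. AT2G38905 then differed by 6.02, which is close to AT1G65500, and AT1G03890, outside the 35, by 6.61 in place of 8.03.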

How the data were processed

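The values analysed are the log2 levels of 17159 probe sets as the authors normalized and deposited them. GCRMA and MAS5 appear in the submitters' processing notes, without saying which gave these levels. Per the labels' protocols, embryos were gathered in lots of 10, and 50 ng of RNA went into each amplification. Removing 37 control probe sets left 17122. In the platform annotation 9631 of them carry 1 gene, 365 several and 7126 none. Identifiers linked 9584 of the 9631 to the RefSeq table of TAIR10.1. A listed gene was represented by its brightest probe set.

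The test was limma (version 3.58.1, R 4.3.3) with lmFit and an intensity trend in eBayes. It ran over all probe sets with Benjamini-Hochberg adjustment and a threshold of 0.05, and "rose" and "fell" are used of genes past it. The script was also run on simulated arrays with independent noise and few added changes. That setting is unlike these data, and nothing here rests on it. The 35 genes, 7 gene lists, relatives and classes were chosen with earlier results of these data known. Relatives and flanking genes were added once the 35 were known. Functions are background knowledge. All 35 genes are named. Array values are given for the 5 largest differences, the 4 highest dcl1-15 means per class and the genes nearest the limits. Other genes named were chosen after their values were seen.

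Deviations of same-numbered arrays from their group means correlated at 0.48, 0.21 and 0.36. No label explains the numbers. The reported fit has no block, and the fit with the number as a block is given beside the results it changes. Wild-type replicate 2 correlated more with dcl1-15 replicate 3, at 0.31. Alternatives were quantile normalization, median centring, other limits, a floor at 4, a filter at 5, no trend, the replicate block and leaving out arrays. Promoter and protein sequences were not used here. The number of arrays limits the precision.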

Additional observations from a re-analysis of the deposited data

Results flagged for a closer look

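A further 34 probe sets met the same limits and belong to no comparison above. The platform annotation used here gives no gene for 33 of them and several for 1. Their differences ran from 2.84 to 7.22, with a median of 4.78, above the wild-type level on all arrays because the limits require it. They are described by these values alone.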

How the results depend on the processing

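The number of genes follows the limits. It was 17 with a wild-type limit of 4, 76 with 6, 74 with a dcl1-15 limit of 6, 15 with 8 and 68 with the limits on group means. Quantile normalization gave 34 genes and median centring 33, and 33 of the 35 met the limits in each. With 1 array left out the number was 36 to 42, and 49 without both arrays numbered 1. The median difference was 4.40 to 4.60 with 1 array left out and 3.77 with the floor at 4. Calls over all probe sets fell to 1886 higher and 2275 lower with that floor, against 3140 and 3562. With 1 array left out they were 2193 to 3513 and 2293 to 4463, lowest for the lower calls without dcl1-15 replicate 2. The seed coat and endosperm list then had 3 to 5 calls, 3 without dcl1-15 replicate 2 or 3, and 2 with the floor. Those 2 were 40% of the markers measured, where 10.3% of probe sets with 1 named gene were called higher with the floor. The relatives had 6 to 10 calls with 1 array left out and 5 with the floor, among them 1 fall without wild-type replicate 2. Some calls lost with the floor on these lists belong to genes with no value under 4, whose differences did not change. With the replicate number as a block 3834 probe sets were called higher and 4591 lower, 11 relatives rose, and 13 flanking genes rose and 5 fell. Apart from the genes that fell, from 3 to 5 among the flanking genes and from 0 to 1 on the LEA list, the block moved no count by over 1.5 times. Signal over background is not known for these arrays.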
